A study of Mus musculus with 12 samples.

Results

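The genes of activins, inhibins and follistatins, with their receptors and the transcription factor Foxl2, were followed in the pituitary gland of mice that had lacked dietary vitamin D. The set holds 10 genes: the subunit genes Inha, Inhba and Inhbb, the antagonists Fst and Fstl3, the receptors Acvr2a, Acvr2b and Acvr1b, the co-receptor Tgfbr3, and Foxl2. They were chosen by name, as every non-control probe whose gene name in the scanner files was 1 of these symbols or a synonym of it. That gave 13 of the 39429 probes and 10 of the 30118 gene names on the array. RNA came from minced pituitaries of 12 female C57BL/6J mice aged 2 months, with 4 animals in each of 3 diet groups. Control mice ate a normal diet, early life mice a vitamin D-deficient diet in early life alone, and peripubertal mice the same kind of diet around puberty alone. The start and end of each diet window and any measure of vitamin D status were not given in the sources used here. Samples were hybridised in pairs to Agilent 2-colour arrays, so that each array held a Cy3-labelled animal of odd number and a Cy5-labelled animal of even number from the same diet group.

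Activins are dimers of inhibin β subunits, and inhibins join the α subunit to a β subunit. In the gonadotroph, the pituitary cell that secretes the gonadotropins, activin binds a type II receptor, which recruits a type I receptor that phosphorylates SMAD proteins, and these act with FOXL2 on the gene of the follicle-stimulating hormone β chain. Follistatins bind activin outside the cell, while inhibin competes for the type II receptor with the help of the co-receptor betaglycan.

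The probes of 2 subunit genes and both probes of Foxl2 are shown because the values below turn on them. The Inha probe reads the subunit found in every inhibin and the Inhba probe the subunit of activin A, and the Foxl2 pair read nearly the same place yet gave different profiles. Sequences and mm9 positions are those of the scanner files, 5′ to 3′, and capitals mark the 12 bases that both Foxl2 probes hold.
Inha, chr1:75506675-75506734, + strand: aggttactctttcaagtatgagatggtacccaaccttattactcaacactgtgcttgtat
Inhba, chr13:16118634-16118693, + strand: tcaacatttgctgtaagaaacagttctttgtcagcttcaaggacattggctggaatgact
Foxl2 dim probe, chr9:98856846-98856905, + strand: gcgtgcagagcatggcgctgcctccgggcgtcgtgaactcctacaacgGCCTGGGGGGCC
Foxl2 bright probe, chr9:98856894-98856950, + strand: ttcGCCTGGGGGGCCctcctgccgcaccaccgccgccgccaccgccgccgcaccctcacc
The bright Foxl2 probe is 60 bases long while its listed position spans 57, and G and C make up 81.7% of it against 71.7% of the dim one. G and C make up 38.3% of the Inha probe and 40.0% of the Inhba probe. The exon or untranslated region that a probe lies in was not assigned here.

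The files do not agree on which deficient group is which. All 8 value-table columns of the deficient groups equal scanned channels of the other deficient group, and the 4 control columns equal no scanned channel. Groups below follow the scanner files, so early life and peripubertal would change places under the table's assignment, and the 2 comparisons with control would swap their values. The control arrays shared 1 slide and scan while the 4 deficient arrays shared another, and for this reason an effect of diet and an effect of slide cannot be told apart when either deficient group is set against control. The share of spots well above background was 61.0% to 66.3% in control, 50.6% to 59.7% in early life and 57.9% to 67.2% in peripubertal channels. The 7 pituitary hormone markers listed, Gh, Prl, Pomc, Tshb, Lhb, Fshb and Cga, were well above background in all 12 channels. Of 7 ovary markers, 6 did not pass the filter on dim probes, and the exception was Gdf9, well above background in 6 channels. In whole glands, fewer cells of a type and less RNA per cell cannot be told apart.

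All 10 genes passed the filter on dim probes, which requires 4 or more of the 12 channels to be well above background, and 9 of the 13 probes were well above it in all 12. None of the 156 values was saturated, and 6 were lost because the scanner software had marked the spot as an outlier. In no comparison did any of the 10 genes pass an adjusted p of 0.05 by limma, Benjamini-Hochberg adjusted over all genes tested. For early life against control, 0.125% of all genes tested passed. Unadjusted p was under 0.05 for 3 of the 10 genes and for 17.3% of all genes, and the animals of both groups did not overlap for 2 of the 10 and for 15.1% of all genes. For peripubertal against control, 0.0213% of all genes passed, 1 of the 10 genes against 5.12% of all was under 0.05 before adjustment, and 1 of the 10 against 9.24% of all did not overlap. For early life against peripubertal, 0.345% of all genes passed, 3 of the 10 against 20.4% were under 0.05 before adjustment, and 2 of the 10 against 22.3% did not overlap. The median log2 difference of the 10 genes was 0.17, 0.16 and 0.07 in these comparisons in turn, and that of all genes tested was 0.03, 0.0069 and 0.03. The smallest unadjusted p-values were those of the subunit genes Inhbb and Inha and of the receptor gene Acvr2a.

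**Figure D1:**
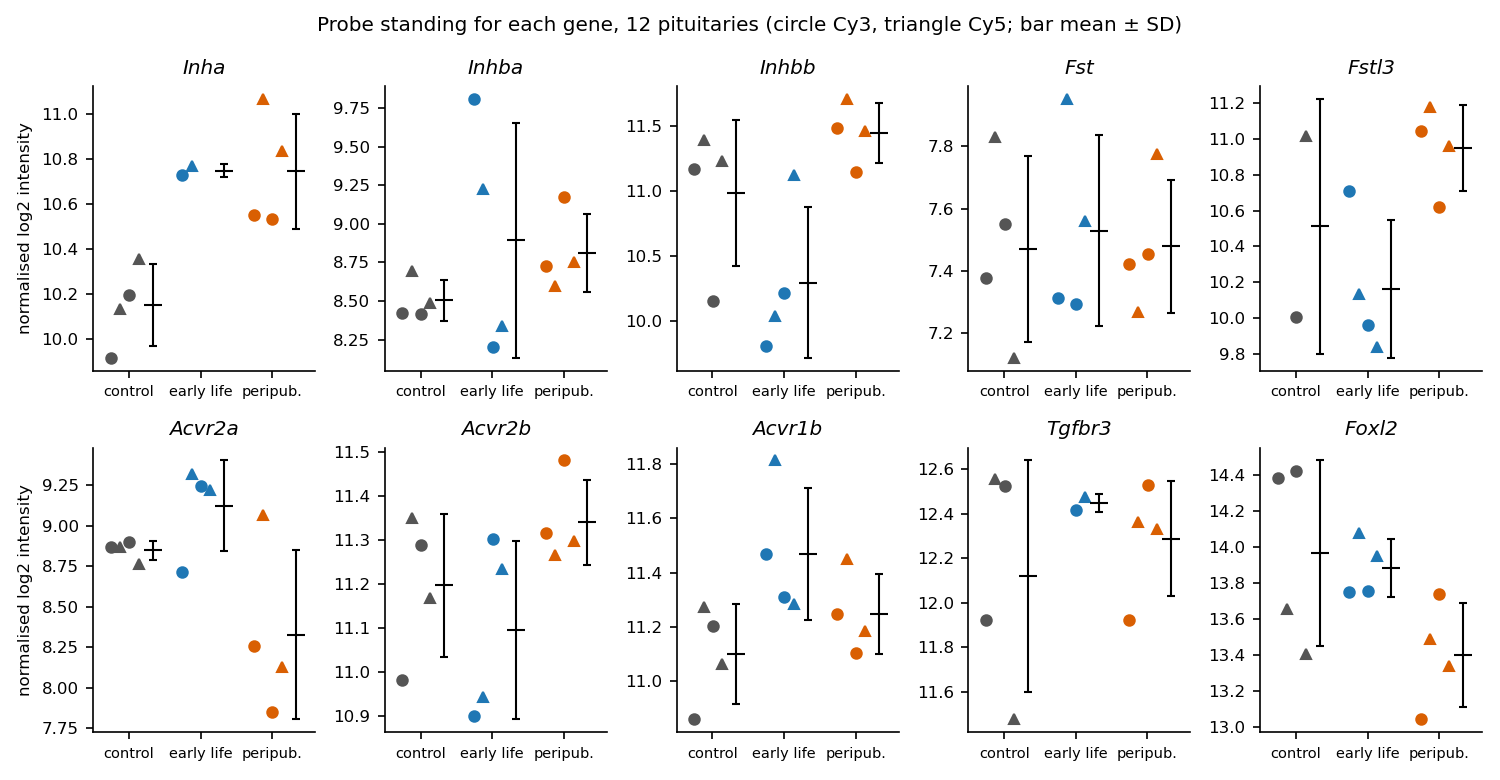
Normalised log2 intensity of the probe standing for each of the 10 genes in every animal, with an axis of its own for each gene. Circles are Cy3 and triangles Cy5 channels, and bars give the mean ± SD of a group. All measured early life and peripubertal values of Inha, 10.53 to 11.07, lie above the 4 control values, 9.92 to 10.36.

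Inha encodes the α subunit that makes a dimer an inhibin. Its log2 intensity was 9.92, 10.14, 10.20 and 10.36 in control animals 1 to 4. It was 10.73 and 10.77 in early life animals 1 and 2, and the array of early life animals 3 and 4 gave no value because its spot was marked as an outlier. It was 10.55, 11.07, 10.53 and 10.83 in peripubertal animals 1 to 4. All 6 deficient animals with a value lay above all 4 control animals, and both deficient groups overlapped. The control mean was 10.15 ± 0.18 (SD, n = 4), the early life mean 10.75 ± 0.0275 (SD, n = 2) and the peripubertal mean 10.75 ± 0.26 (SD, n = 4). Both early life values came from 1 array, so their SD holds no spread between arrays. The log2 difference from control was 0.60 in early life (95% interval 0.20 to 0.99, limma adjusted p = 0.173, unadjusted p = 0.00757). In peripubertal animals it was 0.60 as well (0.27 to 0.92, adjusted p = 0.483, unadjusted p = 0.00234). Early life and peripubertal animals differed by 0.0026 (interval -0.39 to 0.40, adjusted p = 0.994). With the marked spot kept, early life differed from control by 0.54 (adjusted p = 0.192). These 2 differences rest on the same 4 control animals and share their slide.

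Inhba encodes the βA subunit, of which activin A is a dimer. Log2 intensity was 8.42, 8.69, 8.41 and 8.49 in control animals, 9.81, 9.22, 8.20 and 8.34 in early life animals, and 8.72, 8.60, 9.18 and 8.75 in peripubertal animals. Early life animals 1 and 2, which shared an array, were the highest of all 12, and animals 3 and 4, which shared the other, were the lowest, so that the group spanned all control values. On the array of early life animals 1 and 2 the dim spots around the Inhba spot were themselves raised, by 0.57 and 0.34 on the log2 scale in its 2 channels. Their part in the values was not tested beyond leaving such spots out. The difference from control was 0.39 in early life (interval -0.32 to 1.098, adjusted p = 0.554) and 0.31 in peripubertal animals (interval -0.40 to 1.02, adjusted p = 0.999). Without spots in such patches, an alternative chosen after seeing the data, the early life difference was -0.24.

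Inhbb encodes the βB subunit, of which activin B is a dimer and which also enters inhibin B. Control animals gave a log2 intensity of 11.16, 11.39, 10.15 and 11.23. Early life animals gave 9.80, 10.03, 10.21 and 11.12. Peripubertal animals gave 11.48, 11.71, 11.14 and 11.46. Peripubertal animals were the highest as a group and early life animals the lowest, with no overlap between these 2, although early life animal 4 at 11.12 and peripubertal animal 3 at 11.14 were nearly level. Control animals reached into both: animal 3 lay among the early life animals and the other 3 within the peripubertal range. Group means were 10.98 ± 0.56 in control, 10.29 ± 0.58 in early life and 11.45 ± 0.23 in peripubertal animals (SD, n = 4 each). Early life against peripubertal gave a log2 difference of -1.16 (interval -1.79 to -0.52, adjusted p = 0.0975, unadjusted p = 0.00195), the smallest adjusted p among the 10 genes in any comparison. Early life against control gave -0.69 (interval -1.33 to -0.06, adjusted p = 0.260) and peripubertal against control 0.46 (interval -0.17 to 1.097, adjusted p = 0.999). When animals of 1 array were taken as independent, the difference between the deficient groups passed the threshold (limma adjusted p = 0.0293). That setting leaves out the correlation of animals on 1 array (0.306). Under it 1324 of 18238 genes tested passed, against 63 with the correlation kept. Red cell markers separated the same groups, although none passed the threshold and 22.3% of all genes did not overlap in this comparison. All 4 of them, Hba-a1, Hbb-bt, Ahsp and Alas2, were lower in every early life animal than in any peripubertal one, with a median log2 difference of -2.05 and a smallest adjusted p of 0.0981. Their mean deviation from the average of all animals lay between -0.94 and 1.19 in control animals. In early life animals it lay between -1.30 and -0.0013, and in peripubertal animals between 0.29 and 1.81. Of the 4 markers, 3 were well above background in all 12 channels and Ahsp in 7 of 12. The part of red cells in the Inhbb result was not tested. The mean of gonadotroph markers also separated these groups, narrowly. The mean deviation of Lhb, Gnrhr and Nr5a1, the 3 of 4 listed markers with a value in all 12 animals, lay between -0.47 and 0.06 in early life, between 0.11 and 0.53 in peripubertal and between -1.04 and 0.47 in control animals. Of these 3 markers, Nr5a1 alone did not overlap between early life and peripubertal animals (-0.58, limma adjusted p = 0.198), where 22.3% of all genes did not. Lhb (-0.75) and Gnrhr (0.0475) overlapped, and Gnrhr went in the other direction. All 4 listed markers were well above background in all 12 channels, and their part in the result was not tested either.

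Fst encodes follistatin, which binds activin almost irreversibly. Its probe was dim, well above background in 3 of 4 control, 2 of 4 early life and 4 of 4 peripubertal channels. Log2 intensity was 7.38, 7.83, 7.55 and 7.12 in control, 7.31, 7.95, 7.29 and 7.56 in early life and 7.42, 7.27, 7.45 and 7.78 in peripubertal animals. The 3 groups overlapped fully and their means lay within 0.06 of each other. The differences were 0.06 for early life against control (interval -0.43 to 0.55, adjusted p = 0.914) and 0.0094 for peripubertal against control (interval -0.48 to 0.50, adjusted p = 0.999).

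Fstl3 encodes a follistatin-like protein that also binds activin. The spot on the array of control animals 1 and 2 was marked as an outlier, which left 10.01 and 11.02 in control animals 3 and 4. Early life animals gave a log2 intensity of 10.71, 10.14, 9.96 and 9.84 and peripubertal animals 11.04, 11.18, 10.62 and 10.96. Peripubertal animals were the highest group, but early life animal 1 at 10.71 lay above peripubertal animal 3 at 10.62, so these groups overlapped, and the 2 control animals spanned most of the range of both. Early life differed from peripubertal animals by -0.79 (interval -1.50 to -0.08, adjusted p = 0.207, unadjusted p = 0.0323). Against control, with n = 2, the differences were -0.35 in early life (adjusted p = 0.668) and 0.44 in peripubertal animals (adjusted p = 0.999). With the marked Fstl3 spot kept they were -0.76 (adjusted p = 0.374) and 0.03 (adjusted p = 0.9997).

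Acvr2a encodes a type II receptor that activins bind and inhibins compete for, and it had 2 probes. The bright probe stood for the gene, with a log2 intensity of 8.87, 8.87, 8.90 and 8.76 in control, 8.71, 9.32, 9.25 and 9.22 in early life and 8.26, 9.07, 7.85 and 8.13 in peripubertal animals. Control animals lay close together, between 8.76 and 8.90. In early life 3 of 4 animals lay above all controls, and in peripubertal animals 3 of 4 lay below all controls. Early life animal 1 and peripubertal animal 2 were the exceptions, and through them both groups overlapped. Early life against peripubertal gave a log2 difference of 0.80 (interval 0.26 to 1.34, adjusted p = 0.130, unadjusted p = 0.00752). Against control the differences were 0.28 in early life (interval -0.26 to 0.82, adjusted p = 0.583) and -0.52 in peripubertal animals (interval -1.06 to 0.02, adjusted p = 0.991). With animals of 1 array taken as independent, the difference between the deficient groups had a limma adjusted p of 0.0447, in the setting where 1324 of 18238 genes passed. The dim probe, well above background in 10 of 12 channels, lay between 7.23 and 8.56. It gave 0.45 (limma adjusted p = 0.329) for the same comparison and had the sign of the bright probe in all 3. The animals did not rank alike on the 2 probes. On the dim one early life animal 1 was the highest of its group, at 8.56, and animal 4 the lowest, at 7.28. Dim spots around the dim probe were raised by 0.36 in early life animal 1 and by 0.43 in peripubertal animal 1. Their part was not tested.

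Acvr2b, the other type II receptor gene, read 10.98, 11.35, 11.29 and 11.17 in control, 10.90, 10.94, 11.30 and 11.24 in early life and 11.32, 11.27, 11.48 and 11.30 in peripubertal animals on the log2 scale. All 12 values lay between 10.90 and 11.48, with all groups overlapping. The difference furthest from 0 was -0.24 for early life against peripubertal (interval -0.57 to 0.08, adjusted p = 0.364).

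Acvr1b encodes the type I receptor that carries activin signals to SMAD proteins, and its 2 probes did not behave alike. The bright probe gave a log2 intensity of 10.86, 11.27, 11.20 and 11.06 in control, 11.47, 11.81, 11.31 and 11.28 in early life and 11.25, 11.45, 11.10 and 11.18 in peripubertal animals. Every early life animal lay above every control animal, the closest pair being 11.28 and 11.27. The difference was 0.37 (interval 0.02 to 0.72, adjusted p = 0.269, unadjusted p = 0.0385), against 0.15 (interval -0.20 to 0.49, adjusted p = 0.999) for peripubertal animals and control. The dim probe gave 7.62, 7.47, 7.53 and 7.35 in control, 7.01, 7.18, 7.31 and 7.03 in early life and 7.13, 7.22, 9.58 and 8.81 in peripubertal animals. It was not well above background in any early life channel, so its level there is only a bound. It stood far above all others in peripubertal animals 3 and 4, which shared an array, and there the dim spots around it were raised by 1.53 and 0.99. With the mean of both probes standing for Acvr1b, early life differed from control by 0.0052 in place of 0.37, and peripubertal animals by 0.42 in place of 0.15.

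Tgfbr3 encodes betaglycan, the co-receptor through which inhibin blocks activin. Log2 intensity was 11.92, 12.56, 12.53 and 11.47 in control, 12.42 and 12.48 in early life animals 3 and 4, and 11.92, 12.36, 12.53 and 12.33 in peripubertal animals. The spot of early life animals 1 and 2 was marked as an outlier. The control animals spanned all the others, and the differences from control were 0.33 in early life (interval -0.57 to 1.22, adjusted p = 0.698) and 0.17 in peripubertal animals (interval -0.56 to 0.90, adjusted p = 0.999).

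Foxl2 encodes a forkhead factor of gonadotrophs and thyrotrophs. Its bright probe gave a log2 intensity of 14.38, 13.66, 14.42 and 13.40 in control, 13.75, 14.08, 13.75 and 13.95 in early life and 13.04, 13.49, 13.74 and 13.33 in peripubertal animals. Every early life animal lay above every peripubertal one, the closest pair reading 13.7489 and 13.7355, and control animals, from 13.40 to 14.42, overlapped with both. Among controls the Cy3 animals averaged 14.40 and the Cy5 animals 13.53, while in early life the Cy5 animals were the higher, at 14.01 against 13.75. Early life against peripubertal gave 0.48 (interval -0.17 to 1.14, adjusted p = 0.369) and peripubertal against control -0.57 (interval -1.22 to 0.09, adjusted p = 0.999). The dim probe, which shares 12 bases with the bright one and was well above background in 8 of 12 channels, stayed between 7.15 and 7.55. Its differences were 0.03, 0.08 and -0.05 for the 3 comparisons, each within its SE of 0.12. Their signs were opposite to the -0.08, -0.57 and 0.48 of the bright probe (SE 0.30), but values this close to 0 give no sure direction.

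**Figure D2:**
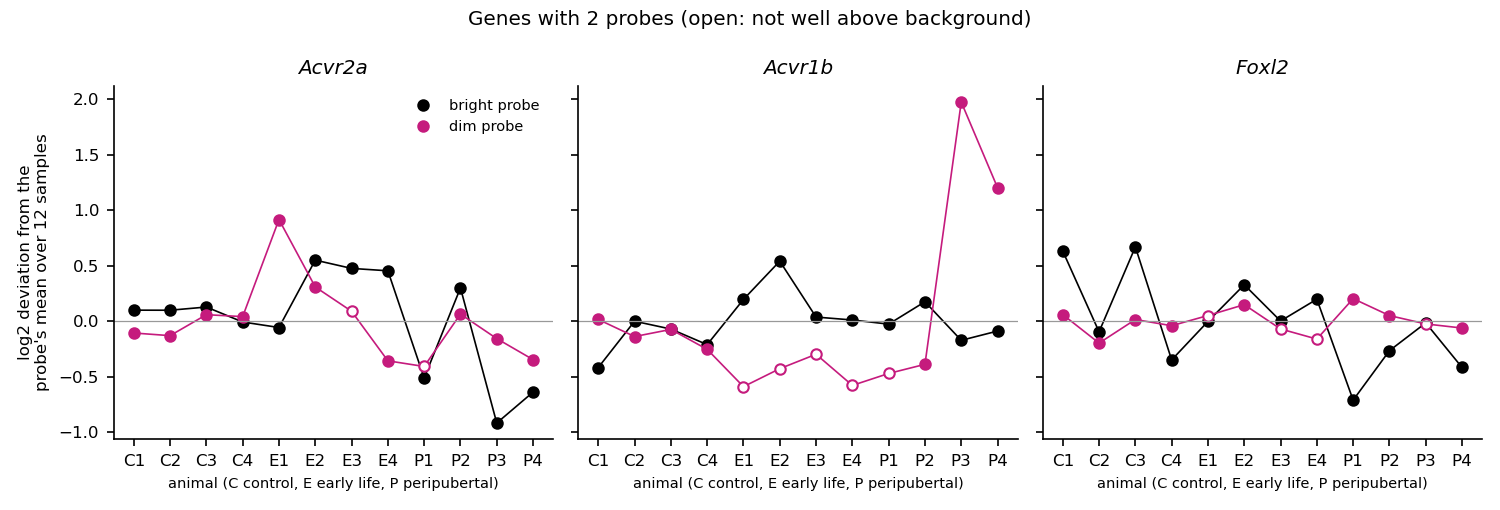
Log2 deviation of each probe from its own mean over the 12 animals, for the 3 genes with 2 probes. Open points were not well above background. The probes of Acvr2a have group differences of the same sign but rank the early life animals differently. The dim Acvr1b probe departs in peripubertal animals 3 and 4, and the dim Foxl2 probe stays within 7.15 to 7.55 on the log2 scale.

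**Figure D3:**
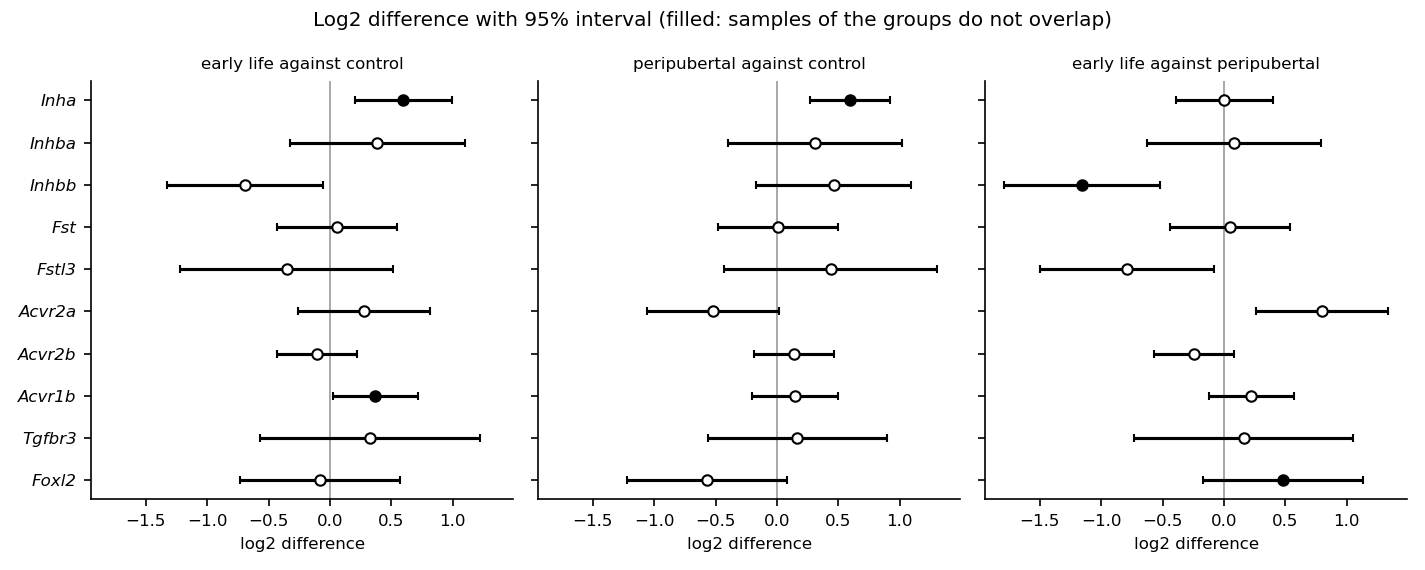
Log2 difference of each gene in the 3 comparisons, with its 95% interval from the fit across all genes. Filled points mark genes whose animals do not overlap between the groups: Inha and Acvr1b for early life against control, Inha for peripubertal against control, and Inhbb and Foxl2 for early life against peripubertal.

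Gonadotroph genes, which activin signalling acts on, were read beside the set. Fshb encodes the follicle-stimulating hormone β chain, and all its early life spots were marked as outliers, so that it could be compared for peripubertal animals and control alone, at 0.67 (adjusted p = 0.999). Leaving out 1 animal moved the Fshb difference between 0.25, without control animal 3, and 0.95, without control animal 1. Lhb, the luteinizing hormone β chain gene, differed from control by -0.03 in early life and 0.72 in peripubertal animals (adjusted p = 0.987 and 0.999). For Cga, the common α chain gene, the differences were -0.0058 and 0.19 (adjusted p = 0.996 and 0.999), and for Gnrhr, the receptor of gonadotropin-releasing hormone, 0.24 and 0.19 (adjusted p = 0.700 and 0.999). Between early life and peripubertal animals Lhb differed by -0.75 (adjusted p = 0.5003), Cga by -0.19 (adjusted p = 0.832) and Gnrhr by 0.0475 (adjusted p = 0.944). Of 10 gonadotroph genes listed, 8, 9 and 8 could be tested in the 3 comparisons and 0 passed. Unadjusted limma p was under 0.05 for 0, 0 and 2 of them, and for 17.3%, 5.12% and 20.4% of all genes. Groups did not overlap for 0, 0 and 2 of them, and for 15.1%, 9.24% and 22.3% of all genes. Those 2, named because of their values, were Nr5a1 and Egr1. Nr5a1, which encodes a nuclear receptor of gonadotrophs, was lower in early life than in peripubertal animals, at -0.58 (adjusted p = 0.198). The immediate early gene Egr1 was at 2.77 with 2 peripubertal values, both of 1 array (adjusted p = 0.231).

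Other genes of the TGF-β family were taken from lists of ligands, receptors, SMAD proteins and their regulators, antagonists and convertases, and gonadotroph genes, 60 in all, of which 53 passed the filter. For early life against control 0 of 50 tested passed and 10 had an unadjusted p under 0.05, where 17.3% of all genes did. For peripubertal against control 1 of 52 passed, in the lower direction, and 3 were under 0.05 before adjustment, against 5.12% of all genes. For early life against peripubertal 0 of 50 passed and 12 were under 0.05 before adjustment, against 20.4% of all genes. The gene that passed was Zfyve9, which encodes an anchor that presents SMAD proteins to the receptor. Its log2 intensity was 8.98, 8.71, 8.70 and 8.59 in control, 7.74, 8.01, 7.49 and 7.73 in early life and 7.23, 7.29, 7.50 and 7.69 in peripubertal animals. All 8 deficient animals lay below all 4 control animals. The difference from control was -1.32 in peripubertal animals (SE 0.17, adjusted p = 0.0370) and -1.002 in early life (SE 0.17, adjusted p = 0.0511). Over the alternatives these differences ran from -2.23 to -1.22 in peripubertal animals and from -1.58 to -0.90 in early life. The Zfyve9 probe was not well above background in all 12 channels, so these sizes are uncertain. Leaving out any 1 of the 12 animals ended the peripubertal call, with adjusted p from 0.0539 to 0.164, and altogether 18 of 25 alternatives ended it. Dim spots around the Zfyve9 spot were raised by 0.48 and 0.35 in peripubertal animals 3 and 4, and without patches the difference was -1.48 (adjusted p = 0.0908).

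The other genes of smallest p in these lists did not pass in the main fit. Except for Gdf11, each passed under some alternatives. Tgif2, a repressor of SMAD-driven transcription, differed from control by -0.81 in early life (adjusted p = 0.0877) and -0.94 in peripubertal animals (adjusted p = 0.159), without overlap in either. The Tgif2 probe was not well above background in all 12 channels either. With processed signals its early life difference was -1.52 (limma adjusted p = 0.0414), so its size is uncertain. Bmp6, a bone morphogenetic protein gene, differed by 0.64 in early life (adjusted p = 0.131). Gdf11, a ligand that binds the same type II receptors, read 10.77 and 10.06 in peripubertal animals 3 and 4 and 6.82 to 7.12 in all others. Around the Gdf11 spot the dim spots of that array were raised by 0.69 and 0.50, and the difference from control was 1.68 (adjusted p = 0.973). Between early life and peripubertal animals, Tgfb3, a TGF-β ligand gene, differed by -1.33 (adjusted p = 0.0686). Fstl5, a follistatin-like gene, differed by 1.31 (adjusted p = 0.0739). Pcsk6, which encodes a convertase that cleaves TGF-β family precursors, differed by -2.06 with 2 early life values, both of 1 array (adjusted p = 0.0917). Groups did not overlap for any of these 3. Control animal 3 lay within or next to the early life values in each. It read 10.74 for Tgfb3 against 11.76 to 11.89 in the other controls, 9.19 for Fstl5 against 8.14 to 8.42, and 13.33 for Pcsk6 against 14.88 to 14.99, as it did for Inhbb at 10.15 against 11.16 to 11.39. This grouping was noticed after the values were seen. The red cell markers of control animal 3 deviated by -0.94, the lowest of the controls, and those of control animal 4 by -0.67. Control animal 4 is among the other controls in each of these ranges. The part of red cells in these values was not tested. Around the Pcsk6 spot the dim spots were raised by 0.46 in control animal 3 and 0.29 in control animal 4. Without patches, Pcsk6 in early life differed from control by -1.88 (limma adjusted p = 0.0172) in place of -1.49 (limma adjusted p = 0.186). The part of this patch in the value of control animal 3 was not tested further.

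The genes whose profile over the 12 channels was closest to a member's were sought for 3 members, Inhbb (SD 0.66), Acvr2a (0.46) and Inhba (0.46), among 10734 genes. These had the largest SD of the 7 members with a value in all 12 channels. Inha, Fstl3 and Tgfbr3 had 10 values each and were left out, although the SD of Fstl3, 0.51, exceeded those of Acvr2a and Inhba. The measure was the mean absolute difference between both genes' log2 deviations from their own mean in each dye. For Inhbb they were Lhfpl2, a tetraspan membrane protein gene (0.127), Pappa2, the gene of a protease that cleaves insulin-like growth factor binding proteins (0.144), and Fam174b (0.169), against a median of 0.530 over all candidates. For Acvr2a they were Gca, the gene of the calcium-binding protein grancalcin (0.137), the ubiquitin ligase gene Rnf114 (0.162) and the zinc finger gene Zfp770 (0.168), against a median of 0.399. For Inhba they were Themis2 (0.116), the kinesin gene Kif3b (0.130) and the myosin heavy chain gene Myh8 (0.135), against a median of 0.382. The Inhba profile includes early life animals 1 and 2, where dim spots around its spot were raised by 0.57 and 0.34. Themis2 was dim, with group means from 7.08 to 7.52. The closest of 10734 genes lie below the median by the way they were picked. All points share the same 12 channels and 6 arrays, so these distances describe this set of animals.

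The deposited value table holds log2 values relative to the median of each column, with column medians of 0. In its control columns, which equal no scanned channel within 1e-06, the 4 probes of Inha, Inhba, Inhbb and Fst stood above all 8 other columns. Inha read 7.81 to 8.99 there and 2.17 to 3.14 in the other 8. Inhba read 6.30 to 8.15 against -0.64 to 2.19. Inhbb read 5.88 to 7.43 against 1.57 to 3.95, and Fst 5.52 to 6.82 against -2.52 to -0.62. The other 9 probes, those of Fstl3, the receptors, Tgfbr3 and Foxl2, overlapped between the control columns and the rest. These columns entered no comparison.

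**Figure D4:**
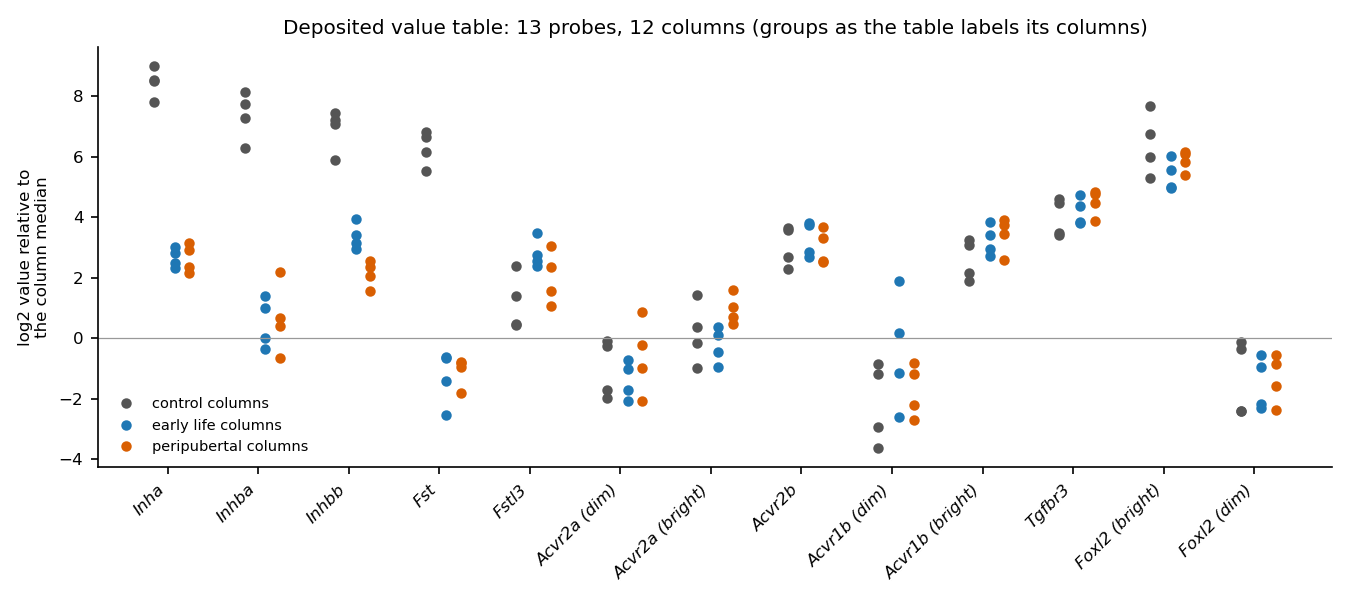
Log2 value relative to the column median for all 13 probes in the deposited value table, 12 columns in 3 groups as the table labels them, 1 point per column. The control columns lie above all others for Inha, Inhba, Inhbb and Fst, by means of 5.81, 6.79, 4.15 and 7.48, and overlap with them for the other 9 probes.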

How the data were processed

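The deposited scanner files give spot brightness and local background as intensity, per the file headers from version 11.0.1.1 of Agilent's Feature Extraction, with quality marks and a processed intensity. The deposited value table gives log2 values whose making the labels do not describe. From the raw intensity, background was corrected by normexp (offset 50), dye bias removed by loess within arrays, and arrays scaled by Aquantile. Spots marked as outliers were left out for both animals of an array, and spots of a probe averaged. Of 39429 probes, 27324 were named by accession, 3518 by symbol and 551 by synonym, and 8036 had no match. The brightest of a gene's 24589 kept probes stood for it, giving 19086 genes. The fit was that of limma 3.58.1 (R 4.3.3), two-sided, with fixed terms for group and dye and a random block for array (correlation 0.306). The labels call the animals biological replicates. The number of arrays limits precision, and the median SE of a log2 difference was 0.18, 0.18 and 0.19. Raised patches were measured as the mean deviation of dim spots within 4 rows and 2 columns. The steps were tested on simulated data.

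The members and gene lists were chosen with earlier results of these data known. All members, 4 gonadotroph genes, and list genes past the threshold or, failing 3 of those, the 3 of smallest p in a comparison were named. Likeness was sought for the 3 members of largest SD among the 7 with a value in all 12 channels. Alternatives covered background correction, scaling, the filter on dim probes, outlier marks, the probe choice, the array block and left-out animals.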

Additional observations from a re-analysis of the deposited data

Results flagged for a closer look

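For the bright Acvr2a probe, early life animal 1 stood apart from its group, at 8.71 where the nearest of the other 3 read 9.22. The gap made up 0.842 of the group's range, above Dixon's 95% critical value for 4 values. It was the only one flagged among 36 groups of 4 values examined, and chance flags about 1 in 20.

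In the deposited value table, the mean of the 4 control columns exceeded that of the other 8 by 5.81 for Inha, 6.79 for Inhba, 4.15 for Inhbb and 7.48 for Fst on the log2 scale, with every control column above every other. These columns equal no scanned channel and enter no comparison. The ovary markers Cyp11a1, Zp3 and Amh read 7.86 to 9.58, 3.67 to 5.46 and 0.71 to 2.98 in the control columns. In the 5, 7 and 5 other columns with a value they read -3.05 to -1.41, -3.42 to -1.30 and -2.74 to -0.97, and their scanned spots were well above background in 0 of 12 channels, so no size is given for these differences. The hormone genes Prl, Gh and Pomc read -4.12 to -2.01, -2.21 to -2.12 (2 control columns with a value) and 0.03 to 1.57 in the control columns, and 8.93 to 10.40, 9.47 to 10.31 and 9.27 to 10.21 in the other 8. The origin of these columns was not tested.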

How the results depend on the processing

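The count of members past the threshold stayed at 0 in all 3 comparisons under the alternatives run, except that 2 passed for early life against peripubertal, Inhbb and Acvr2a, with animals of an array taken as independent. That setting leaves out the array correlation of 0.306, and 1324 of 18238 genes tested passed under it. Over all members 746 of 787 alternative values kept direction and side of the threshold, and 39 changed sign. Many alternatives changed only the SE or left a gene with 1 probe untouched, so that its difference could not change sign. For Inhbb in early life against control, -0.69 recurred unchanged without the array block, with array means and with either change of the filter. The count of kept values is therefore no measure of robustness. The deposited value table's deficient columns equal channels of the other deficient group, and with it the difference between these groups turned in 9 members (Inhba -0.13, Inhbb 1.23, Fst -0.21, Fstl3 0.80, Acvr2a -1.18, Acvr2b 0.26, Acvr1b -0.19, Tgfbr3 -0.29, Foxl2 -0.48), as in Zfyve9 (-0.66), Tgif2 (-0.37), Bmp6 (-0.38), Gdf11 (2.22), Tgfb3 (1.24), Fstl5 (-1.67), Pcsk6 (1.67), Lhb (0.67) and Gnrhr (-0.050). Median centring moved the median of all genes to 0.17 for early life and 0.14 for peripubertal against control. Under it early life against control turned for Fst (-0.055), Fstl3 (0.11), Acvr2b (0.12), Foxl2 (0.21), Lhb (0.24) and Cga (0.40), peripubertal against control for Fst (-0.10), and early life against peripubertal for Cga (0.19). With the processed signals, early life against control turned for Acvr2b (0.018) and Cga (0.0202), and Gnrhr against peripubertal (-0.062), and with quantile scaling Cga against control (0.0200). The mean of both probes turned Acvr1b between the deficient groups (-0.41), and keeping marked spots turned Inha there (-0.053). Without patches, Inhba turned against control (-0.24) and peripubertal (-0.54), and Gdf11 for peripubertal against control (-0.059). Apart from the table and the patches, the cause was not tested. Alternatives newly past the threshold with the sign kept were 7 of 79 for Pcsk6, 6 of 79 for Tgfb3 and 6 of 76 for Zfyve9. There were 3 of 79 for Fstl5, 3 of 76 for Tgif2 and 2 of 79 for Bmp6. Between the deficient groups Pcsk6 had a limma adjusted p of 0.0285 with only the 8 samples compared and 0.00536 without patches.

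Leaving out 1 animal at a time moved or turned several values. Early life against control gave Inhba 0.12 to 0.60, Tgfbr3 0.04 to 0.56, Fst -0.12 to 0.18, Fstl3 -0.88 to 0.18, Foxl2 -0.30 to 0.10, Lhb -0.51 to 0.24, Cga -0.47 to 0.46 and Gnrhr -0.031 to 0.41. For peripubertal against control it gave Fshb 0.25 to 0.95, Lhb 0.23 to 0.97, Fst -0.17 to 0.13, Fstl3 -0.091 to 0.97, Tgfbr3 -0.12 to 0.40, Cga -0.13 to 0.46 and Gnrhr -0.079 to 0.32. Between the deficient groups it gave Inha -0.13 to 0.13, Inhba -0.19 to 0.29, Fst -0.079 to 0.13, Cga -0.66 to 0.28 and Gnrhr -0.10 to 0.22.

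The count of all genes past the threshold was unstable. For early life against control it was 23, and 48 with processed signals, 1 with median centring, 0 with only probes well above background in all channels, 13 with marked spots kept, 132 with the mean of probes, 601 without the array block, 13 with array means, 11 with only the 8 samples compared, 56 without patches, and 6 to 521 with 1 animal left out (lowest without control 4, highest without early life 3). For peripubertal against control it was 4, and 20 with the mean of probes or without the array block, 10 with the 8 samples, 0 with median centring, without or with the strictest filter, with marked spots, array means or without patches, and 0 to 3 with 1 animal left out. For early life against peripubertal it was 63, and 35 with processed signals, 18 with quantile scaling, 5 with median centring, 29 without the filter, 1 with the strictest one, 7 with marked spots, 169 with the mean of probes, 1324 without the array block, 39 with array means, 131 without patches, and 6 to 1099 with 1 animal left out (lowest without control 4, highest without early life 3). Of the early life calls against control, 11 of 23 were higher, against 0 of 1 with median centring. Between the deficient groups 25 of 63 were higher, against 9 of 18 with quantile scaling and 5 of 5 with median centring.

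With the replicate number as a block in place of dye, 10, 0 and 6 genes passed in the 3 comparisons and no member did. Of 12 pairs of the same number, 0 correlated above 0.1 (r from -0.285 to 0.0594). These were deviations from group and dye means, and animals of the same number share a dye. Taking out the dye mean lowers r for such pairs, so this check could not settle whether the number pairs animals. The number was not taken to pair them.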
